A study of Mus musculus with 11 samples.

Results

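The 10 genes described here carry the JAK2-STAT5 signal that lies below the interleukin-3 receptor: the kinase gene Jak2, the transcription factor genes Stat5a and Stat5b, the feedback genes Cish, Socs1, Socs2 and Socs3, and the serine/threonine kinase genes Pim1, Pim2 and Pim3. They were taken by name, through the RefSeq accession that the array files give for each probe. No measured value was part of that rule, but earlier results of these data were known when the genes were chosen. They are 10 of 20972 gene symbols with a probe on the array and 10 of the 25082 genes or unnamed features tested. They have 13 probes, 1 each for 8 of the genes, 3 for Socs2 and 2 for Stat5b, and every one of the 13 was well above background on all 11 arrays.

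When interleukin-3 binds its receptor, the kinase JAK2, which is held on the shared beta chain, phosphorylates the receptor and the STAT5 proteins. Phosphorylated STAT5 proteins pair, enter the nucleus and bind DNA at palindromic sites of the form TTCNNNGAA. Among the genes they are known to switch on are Cish and the Socs genes, whose SH2-domain proteins bind back to the receptor or to the JAK and damp the signal, and the Pim genes, whose kinases promote survival and growth of blood cells. Cells of the granulocyte-monocyte lineage grown in interleukin-3 rely on this pathway.

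The cells were mouse leukaemic granulocyte-monocyte progenitors (L-GMP) transformed with MLL-AF9, the fusion oncogene of a human acute leukaemia, on the C57BL/6 background. Their genotype in the labels is Jmjd2a/b/cf/f;Rosa26::CreERT2, that is, floxed Kdm4a, Kdm4b and Kdm4c (histone demethylase genes, also named Jmjd2a, Jmjd2b and Jmjd2c) and a tamoxifen-activated Cre recombinase at the Rosa26 locus. The 0 h group (4 arrays) received no 4-hydroxytamoxifen, and the 48 h group (4 arrays) and the 96 h group (3 arrays) received 500 nM for 48 h and 96 h. Every group, untreated cells included, carried the MLL-AF9 fusion, the floxed alleles and the recombinase, and grew in RPMI with 20% serum and 10 ng/ml interleukin-3, the ligand of the pathway described. The series compared the time points to find genes that depend on the 3 demethylases. Treated cells without floxed alleles were not analysed here, so loss of the demethylases, the drug with its recombinase, and time in culture cannot be told apart. The study's design text names 4 cell lines from leukaemic mice, but the labels do not tie arrays to lines, so the p-values measure the spread between these arrays, which may in part be technical.

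Values are scaled log2 signals: log2 of an array's processed spot signal minus log2 of its 75th percentile over non-control spots, so that 0 is that percentile and 1 unit is a 2-fold difference. The array number limits the precision, and a level of 1 probe says nothing against that of another. Between 50.2% and 64.7% of spots were well above background on 10 arrays, and 75.8% on replicate 1 of 96 h. The 0 h and 48 h arrays share 1 slide and scan and all 96 h arrays lie on another, so the 96 h time point and its slide cannot be told apart. The median of all features tested moved by 0.12 at 48 h and 0.11 at 96 h against 0 h; with each array's median as the scale these medians were -0.10 and -0.28. The floxed genes fell at both treated times, Kdm4a by 1.59 and 1.20, Kdm4b by 3.30 and 3.24, and Kdm4c by 4.95 and 4.60 on the log2 scale at 48 h and 96 h.

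Cish and Socs3 had the STAT motif in the promoter windows of RefSeq (mouse build GRCm38.p6), and these stretches are shown because they hold the letters that STAT5 is known to bind. The motif searched was TTCNNNGAA, which is its own reverse complement and so covers both strands, in the 300 bases from 250 before to 50 after each annotated start. The table had 12 windows for 9 of the 10 members, Socs2 being the one without a window. The Cish stretch lies at chr9:107296599-107296678 on the plus strand and ends 20 bases after the start, and the Socs3 stretch at chr11:117969482-117969580 on the minus strand lies before the start. Both are written 5′ to 3′ along the gene with the TTC and GAA arms in capitals.
Cish: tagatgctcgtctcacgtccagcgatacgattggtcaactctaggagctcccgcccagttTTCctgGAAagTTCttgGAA
Socs3: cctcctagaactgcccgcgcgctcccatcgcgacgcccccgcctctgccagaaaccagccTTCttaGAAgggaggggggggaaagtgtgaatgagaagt
The Cish window held 2 matches, which start 0 and 11 bases after the annotated start, and the Socs3 window held 1. The motif was in 2 of the 12 member windows and in 8.30% of all 32851 windows, and 0.457% of all windows held 2 or more. The other member windows do not hold these letters within their 300 bases, and nothing about binding was measured.

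After 48 h of treatment, 5 of the 10 genes had fallen (Jak2, Stat5b, Cish, Socs2 and Pim3) and none had risen. The test was limma without a replicate block, at an adjusted p under 0.05 with Benjamini-Hochberg adjustment over all 25082 features. With the title number as a replicate block 3 were called, without Stat5b and Cish, and with the number in the submitters' array names 5 were. These numbers are the same at 0 h and 48 h and differ at 96 h. With the block on the 0 h and 48 h arrays alone, a fit chosen after seeing the data, 3 were called. Across those features 18.6% were called in this comparison, 10.5% higher and 8.02% lower. All 10 members were below their 0 h mean, with a median log2 difference of -0.36 against 0.12 for all features. At an unadjusted p under 0.05, 7 members were lower and 0 higher. The share of all features at that threshold was not counted, so the unadjusted counts here and below have no such share beside them. For 5 members every 48 h array lay below every 0 h array, where 9.82% of all features did so (and 14.1% lay wholly above). After 96 h, 3 members were lower than at 0 h (Cish, Socs2 and Pim3) and 0 higher, where 3.38% of all features were called lower, 6.17% higher and 9.55% in either direction. For 4 members every 96 h array lay below every 0 h array, as for 8.69% of all features. At an unadjusted p under 0.05 the 96 h counts were 4 lower and 0 higher, and the median over the 10 was -0.34 against 0.11 for all features. Between 48 h and 96 h, Jak2 rose and Cish fell again, where 11.1% of all features were called, 5.17% higher and 5.95% lower. The 96 h arrays lay wholly above those of 48 h for 3 members (14.2% of all features) and wholly below for 1 (13.6%). The comparisons with 0 h share their 0 h arrays.

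**Figure D1:**
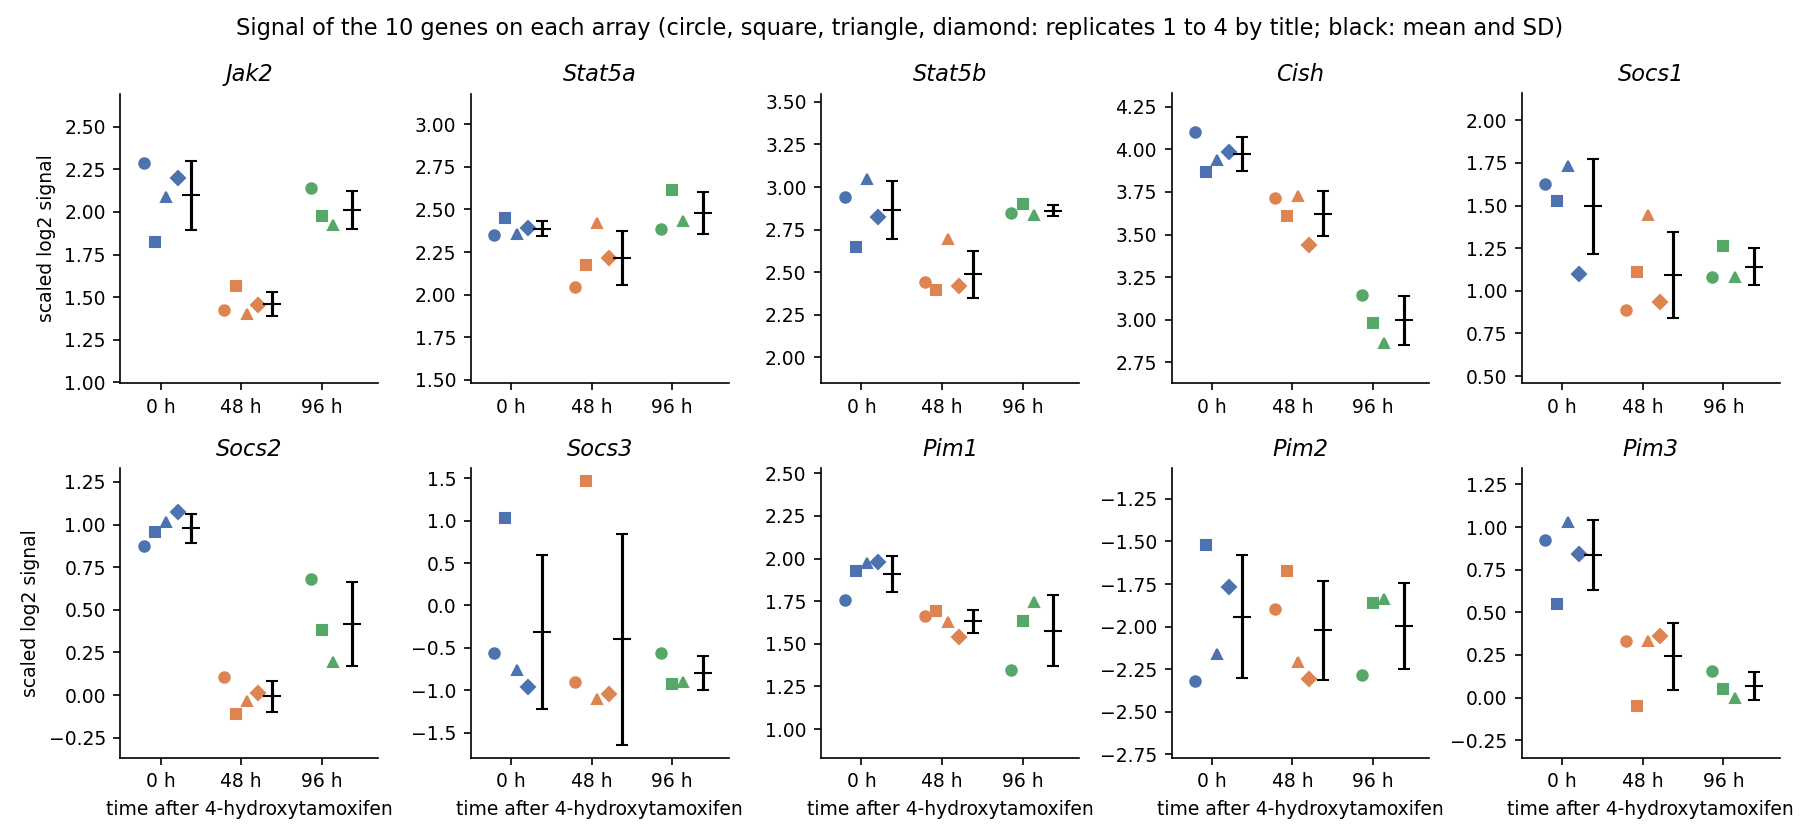
Scaled log2 signal (y axis; 0 is the array's 75th percentile) of each of the 10 genes on every array, by hours of 4-hydroxytamoxifen (x axis); coloured symbols are arrays, 4 at 0 h, 4 at 48 h and 3 at 96 h, with the symbol marking the replicate number, and black bars are the mean and SD of the group. Cish steps down from a mean of 3.97 to 3.62 and then to arrays between 2.86 and 3.15, Jak2 dips to 1.46 at 48 h and is 2.01 at 96 h, and 2 arrays of Socs3 stand far above the rest.

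**Figure D2:**
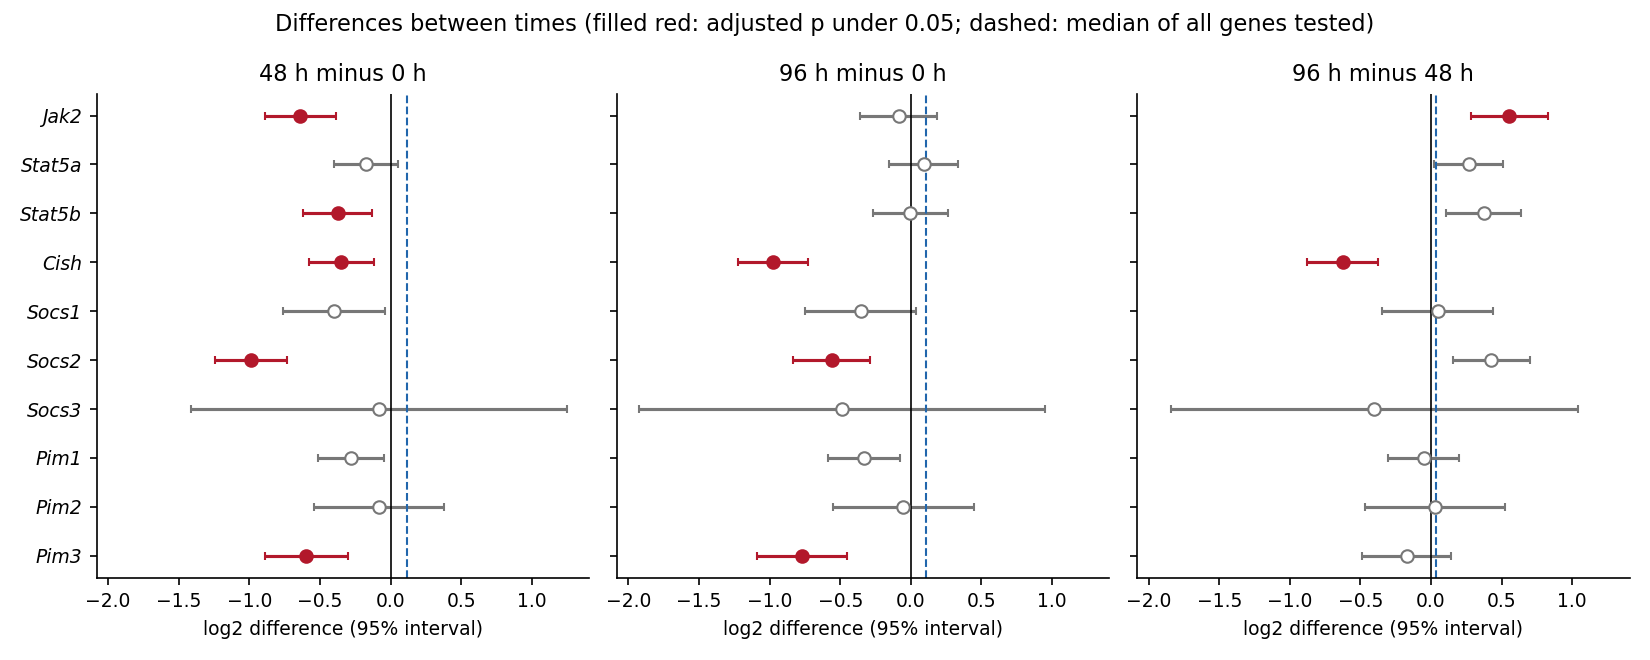
Log2 difference (x axis) of each gene (y axis) in the 3 comparisons, with 95% intervals from limma; filled red points have an adjusted p under 0.05, and the dashed line is the median of all features tested. In the comparison of 48 h with 0 h all 10 points lie below 0, and 5 are filled.

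Jak2 encodes the kinase that starts the signal. On the 4 arrays of 0 h it read 2.29, 1.82, 2.09 and 2.20, on those of 48 h 1.42, 1.56, 1.40 and 1.46, and on those of 96 h 2.14, 1.98 and 1.92. All 48 h arrays lay below all others, and the 96 h arrays lay within the range of 0 h. Jak2 fell by 0.64 (SE 0.11) on the log2 scale at 48 h, to 64.2% of its 0 h level (adjusted p = 0.00672). At 96 h the difference from 0 h was -0.09 (95% interval -0.36 to 0.19; adjusted p = 0.677; -0.47 with median scaling, adjusted p = 0.0992), and Jak2 stood 0.55 (SE 0.12) above its 48 h level (adjusted p = 0.0203). The call for 96 h against 48 h was lost with median scaling (0.39, adjusted p = 0.236), with normexp background correction (adjusted p = 0.0524), in the authors' deposited table (0.0517), with dim probes kept (0.0520) and with the title number as a replicate block (0.57, adjusted p = 0.0515; 0.0435 with the number in the submitters' array names). It was also lost without replicate 1 of 48 h (adjusted p = 0.0516), replicate 4 of 48 h (0.0517) or replicate 1 of 96 h (0.0831).

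Stat5a and Stat5b are neighbouring, closely related genes for the transcription factors that JAK2 phosphorylates. Stat5b read 2.94, 2.65, 3.05 and 2.82 at 0 h, 2.44, 2.40, 2.69 and 2.42 at 48 h, and 2.85, 2.90 and 2.84 at 96 h. Replicate 3 of 48 h reached into the 0 h range, and the 96 h arrays lay inside it. Stat5b fell by 0.37 (SE 0.11) at 48 h, to 77.1% of 0 h (adjusted p = 0.0396), and at 96 h its difference from 0 h was -0.00 (95% interval -0.27 to 0.26), and -0.39 with median scaling (adjusted p = 0.220). The call at 48 h was lost in 7 of 15 alternatives other than leaving out an array, with adjusted p-values of up to 0.0908. With the title number as a replicate block its adjusted p was 0.0556, and with the number in the submitters' array names as the block 0.0249. Of the 11 fits that left out 1 array, 9 lost it, with adjusted p-values of up to 0.101, and those without replicate 2 of 0 h or replicate 3 of 48 h kept it. Between 48 h and 96 h the difference was 0.37 (95% interval 0.11 to 0.63; adjusted p = 0.0711), with the 96 h arrays wholly above. That difference passed in 5 of 14 alternatives other than leaving out an array, with an adjusted p down to 0.0145 for normexp background correction. It also passed in 1 of the 11 fits that left out 1 array (0.0492). A second Stat5b probe differed by -0.24 at 48 h and -0.08 at 96 h, with adjusted p-values of 0.117 and 0.625 over all 34273 probes. Stat5a read 2.35, 2.45, 2.36 and 2.39 at 0 h, 2.04, 2.17, 2.42 and 2.22 at 48 h, and 2.39, 2.62 and 2.43 at 96 h. Its groups overlapped, and its differences from 0 h were -0.17 at 48 h (95% interval -0.40 to 0.05; adjusted p = 0.245) and 0.09 at 96 h (95% interval -0.15 to 0.33; adjusted p = 0.614), the latter -0.29 with median scaling.

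Cish encodes CIS, an SH2-domain protein that occupies the STAT5 docking sites of the receptor, and it is a classic direct STAT5 target. It read 4.10, 3.87, 3.93 and 3.98 at 0 h, 3.71, 3.61, 3.73 and 3.44 at 48 h, and 3.15, 2.98 and 2.86 at 96 h. The 3 groups did not overlap, with each time point below the one before it. Cish fell by 0.35 (SE 0.10) at 48 h, to 78.5% of 0 h (adjusted p = 0.0423), and by 0.97 (SE 0.11) at 96 h, to 50.9% (adjusted p = 0.00372). Between 48 h and 96 h it fell by 0.63 (SE 0.11; adjusted p = 0.0100). The 48 h call was lost in 7 of 15 alternatives other than leaving out an array, with adjusted p-values of up to 0.0981. Among these, it was lost with the title number as a replicate block (adjusted p = 0.0576) but not with the number in the array names (0.0336). Of the 11 fits that left out 1 array, 7 lost it (adjusted p of up to 0.114); those without replicate 2 of 0 h, replicate 3 of 48 h, or replicate 1 or 3 of 96 h kept it. Both calls at 96 h held under all alternatives run, with adjusted p-values of at most 0.0263 against 0 h and 0.0382 against 48 h.

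Socs2 encodes a feedback protein that also limits growth hormone signalling through JAK2. On the 0 h arrays it read 0.87, 0.96, 1.01 and 1.07, on the 48 h arrays 0.10, -0.11, -0.04 and 0.01, and on the 96 h arrays 0.68, 0.38 and 0.19. The 96 h arrays lay between the other groups and overlapped neither. Socs2 fell by 0.99 (SE 0.11) at 48 h, to 50.5% of 0 h (adjusted p = 0.00182), the largest difference among the 10 genes in that comparison. At 96 h it stood 0.56 (SE 0.12) below 0 h on the log2 scale, at 67.8% (adjusted p = 0.0252), and 0.43 above 48 h (95% interval 0.15 to 0.70; adjusted p = 0.0516). That difference passed the test in 6 of 14 alternatives other than leaving out an array, with an adjusted p down to 0.0196 for the mean of the Socs2 probes, and without replicate 3 of 96 h (0.0400). The other two Socs2 probes fell by 1.06 and 0.85 at 48 h in limma (adjusted p = 0.00214 and 0.00249 over all probes) and differed by -0.47 and -0.31 at 96 h (adjusted p = 0.0510 and 0.118). Against 48 h, both were higher at 96 h in limma, by 0.59 and 0.55 (adjusted p = 0.0214 and 0.0190 over all probes). The 96 h call against 0 h was lost with the title number as a replicate block (-0.54, adjusted p = 0.0581; 0.0345 with the array-name number), with dim probes kept (0.0578), with the 48 h arrays left out of the fit (0.0752), and without replicate 3 or 4 of 0 h or replicate 2 or 3 of 96 h (adjusted p between 0.0590 and 0.0773).

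Socs1, whose protein blocks JAK catalytic activity, read 1.63, 1.52, 1.73 and 1.099 at 0 h, 0.89, 1.11, 1.44 and 0.94 at 48 h, and 1.08, 1.27 and 1.08 at 96 h. Replicate 4 of 0 h lay inside the range of the treated arrays. The differences from 0 h were -0.40 at 48 h (95% interval -0.76 to -0.04; adjusted p = 0.112) and -0.35 at 96 h (adjusted p = 0.216), and neither passed the test. Without replicate 4 of 0 h, the difference at 48 h was -0.53 with an adjusted p of 0.0482.

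Socs3, whose protein inhibits JAK kinases from a receptor docking site, had the widest spread of the 10 genes among the 0 h and among the 48 h arrays. It read -0.56, 1.02, -0.76 and -0.96 at 0 h, -0.91, 1.46, -1.10 and -1.05 at 48 h, and -0.57, -0.93 and -0.90 at 96 h. Replicate 2 was the high array at both 0 h and 48 h, and no 96 h array carries the number 2 in the submitters' array names. The group means were -0.31 ± 0.91 (SD, n = 4), -0.40 ± 1.24 (SD, n = 4) and -0.80 ± 0.20 (SD, n = 3). The difference at 48 h was -0.08 with a 95% interval of -1.42 to 1.25, so that a change of 2-fold in either direction was not detectable. Among the arrays that bear the numbers 1, 3 and 4 in those names, the differences from 0 h were -0.26 at 48 h and -0.04 at 96 h (adjusted p = 0.258 and 0.886).

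Of the Pim kinases, which phosphorylate regulators of survival and translation and are controlled mainly by their amount, Pim3 fell. It read 0.93, 0.55, 1.03 and 0.84 at 0 h, 0.33, -0.05, 0.33 and 0.36 at 48 h, and 0.16, 0.05 and -0.00 at 96 h. Both treated groups lay wholly below 0 h, and the treated groups overlapped each other. Pim3 fell by 0.60 (SE 0.13) at 48 h, to 66.2% of 0 h (adjusted p = 0.0149), and by 0.77 (SE 0.14) at 96 h, to 58.7% (adjusted p = 0.0155). The difference between 96 h and 48 h was -0.17 (95% interval -0.49 to 0.14; adjusted p = 0.467). Without replicate 2 of 96 h the adjusted p at 96 h against 0 h was 0.0510.

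Pim1 read 1.76, 1.93, 1.97 and 1.98 at 0 h, 1.66, 1.69, 1.63 and 1.54 at 48 h, and 1.35, 1.64 and 1.75 at 96 h. Every treated array lay below every 0 h array, and the treated groups overlapped. Its differences from 0 h did not pass the test: -0.28 at 48 h (95% interval -0.51 to -0.04; adjusted p = 0.0913) and -0.33 at 96 h (95% interval -0.59 to -0.08; adjusted p = 0.0899). With the background corrected by normexp, and equally in the authors' deposited table, the 96 h difference was -0.40 (adjusted p = 0.0143 in both). Pim2, which is induced by cytokines in blood cells, read -2.32, -1.52, -2.16 and -1.77 at 0 h, -1.90, -1.67, -2.21 and -2.31 at 48 h, and -2.29, -1.86 and -1.84 at 96 h. Its groups overlapped fully, with differences from 0 h of -0.08 (95% interval -0.54 to 0.38; adjusted p = 0.81) and -0.05 (adjusted p = 0.90).

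Differences between members of a family on the same array do not depend on how arrays are scaled, and only their change has a meaning, since probes differ in brightness. Over 6 pairs and 3 comparisons (18 exact 2-sided permutation tests) the clearest pair was Cish minus Socs2. It was 3.23, 2.91, 2.92 and 2.91 at 0 h, 3.61, 3.72, 3.76 and 3.43 at 48 h, and 2.47, 2.60 and 2.67 at 96 h, so that the 3 groups did not overlap. The mean differences were 0.64 from 0 h to 48 h, -0.41 from 0 h to 96 h and -1.05 from 48 h to 96 h, each with an exact permutation p of 0.0286, the smallest that these group sizes allow, and of 0.171 after Benjamini-Hochberg adjustment over the 18 tests. Pim2 minus Pim3 differed from 0 h by 0.52 at 48 h (exact permutation p = 0.229) and by 0.72 at 96 h (0.114), Pim1 minus Pim3 by 0.32 (0.171) and 0.44 (0.114), and Stat5a minus Stat5b by 0.20 at 48 h (0.2). No pair passed the adjusted threshold of 0.05, and with these group sizes the adjusted p could pass it only if many of the 18 tests reached their smallest p.

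**Figure D3:**
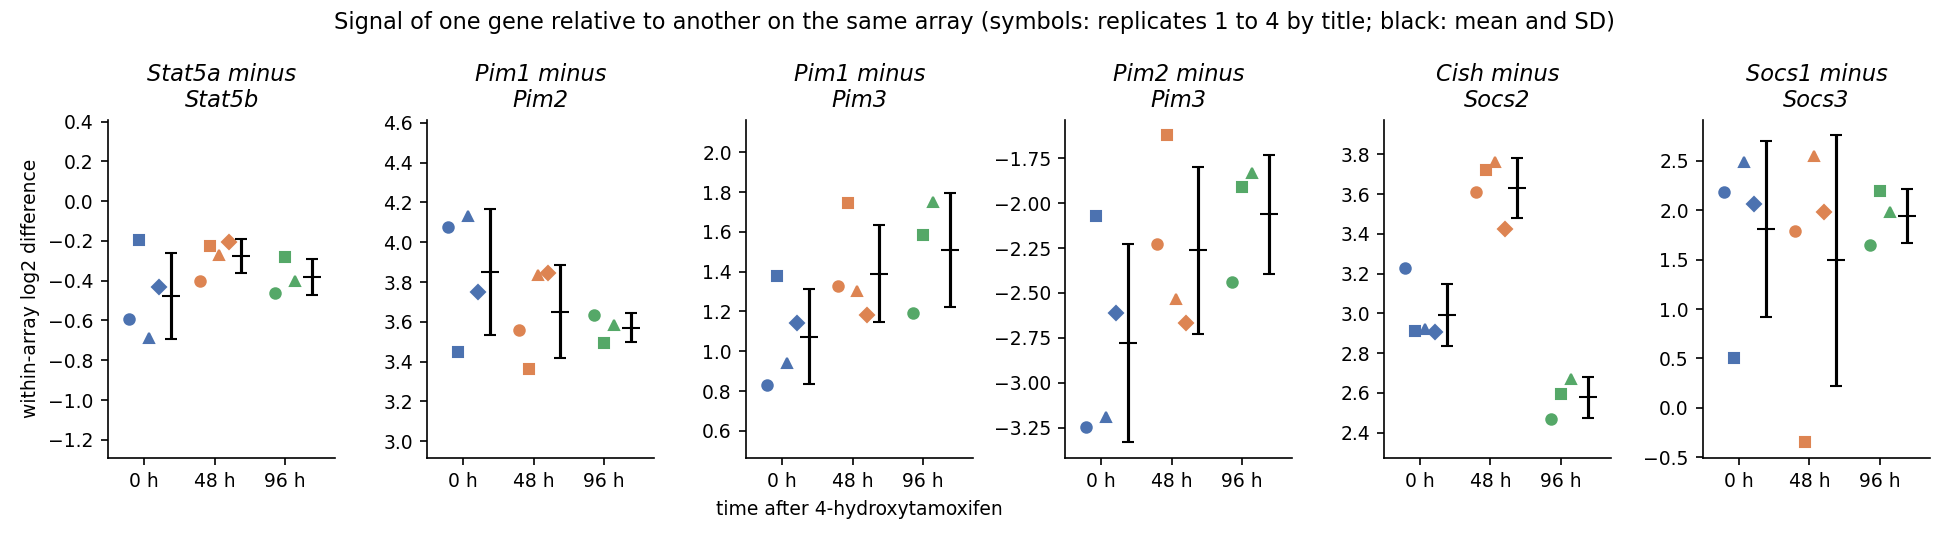
Within-array log2 difference (y axis) for 6 pairs of family members by hours of 4-hydroxytamoxifen (x axis); coloured symbols are arrays and black bars are the mean and SD of the group. Cish minus Socs2 has a mean of 2.99 at 0 h, 3.63 at 48 h and 2.58 at 96 h, with no overlap between groups.

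The rest of the pathway was read from 6 lists, with 58 genes tested. At 48 h 16 of the 58 were lower and 2 higher (31.0% called, against the 18.6% above), with a median of -0.25. Against 0 h, 6 were lower and 1 higher at 96 h (12.1%, near the 9.55% of all features, median -0.03), and at 96 h against 48 h 2 were lower and 4 higher (10.3%, near the 11.1% of all features, median 0.16).

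Among the receptor chains, Il3ra, the ligand-specific chain of the interleukin-3 receptor, fell by 1.20 at 48 h and by 1.89 at 96 h (adjusted p = 0.00243 and 0.00137), and by 0.69 between those times (adjusted p = 0.0305). No receptor chain was called between 48 h and 96 h with median scaling, with dim probes kept, with the 0 h arrays left out of the fit, with the title number as a replicate block, or without replicate 1, 2 or 3 of 48 h or replicate 1 or 3 of 96 h. It read 5.37, 5.33, 5.51 and 5.43 at 0 h, 4.12, 4.37, 4.42 and 3.93 at 48 h, and 3.28, 3.91 and 3.38 at 96 h, in 3 groups that did not overlap. The shared beta chain gene Csf2rb differed from 0 h by 0.06 and -0.04, and Csf2rb2, the beta chain specific to interleukin-3 in mice, by 0.10 and 0.07. Csf2ra, the alpha chain of the GM-CSF receptor, differed by -0.33 at 48 h (adjusted p = 0.0816) and 0.07 at 96 h. The probes of Il5ra did not pass the filter on dim probes. Il3ra was the 1 of 4 tested chains called in each comparison, in each case lower. The shares of all features called lower were 8.02% at 48 h, 3.38% at 96 h against 0 h and 5.95% between those times. At an unadjusted p under 0.05 the counts for the chains were 0 higher and 2 lower at 48 h, 0 and 1 at 96 h, and 1 and 1 between them.

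Of the 8 other JAK and STAT genes, Stat4 (-1.09, adjusted p = 0.0089) and Stat6 (-0.45, adjusted p = 0.0447) fell at 48 h and none rose (4 lower and 0 higher at an unadjusted p under 0.05). At 96 h Tyk2, a JAK family kinase used by interferon receptors, was 0.59 above 0 h (adjusted p = 0.0299), and none of the 8 was called lower, at an unadjusted p under 0.05 either. That 1 call of 8 is near the 9.55% of all features called there. Between 48 h and 96 h 4 of them rose: Tyk2 by 0.80 (adjusted p = 0.0091), Stat2 by 0.77 (0.0192), Stat6 by 0.56 (0.0375) and Jak1 by 0.52 (0.0322). None of the 8 was lower there, at an unadjusted p under 0.05 either, and their median was 0.54 against 0.03 for all features. The share of all features called there was 11.1%, with 5.17% higher and 5.95% lower. Jak1 differed from 0 h by -0.33 and 0.18 at 48 h and 96 h, Jak3 by 0.10 and 0.48, Stat2 by -0.46 and 0.31, and Stat3 by 0.12 and 0.37, and none of these passed the test. Over the alternatives run, this list's count ranged from 1 to 3 genes at 48 h, 0 to 4 at 96 h against 0 h and 0 to 5 at 96 h against 48 h.

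Of 16 tested genes for other SOCS proteins and negative regulators, 6 fell and 2 rose at 48 h, with a median of -0.36. Of all features, 8.02% were called lower and 10.5% higher there. Socs5 fell by 0.64 (adjusted p = 0.0382), Socs7 by 0.63 (adjusted p = 0.0178) and Ptpn2, a phosphatase of JAKs and STATs, by 0.55 (adjusted p = 0.0096). At 96 h Socs6 and Socs4 were lower than at 0 h (-0.62 and -0.56, adjusted p = 0.0320 and 0.0360) and 0 genes were higher (4 lower and 1 higher at an unadjusted p under 0.05). These 2 calls of 16 are near the 9.55% of all features called there, with 3.38% lower and 6.17% higher. None of the 16 was called between 48 h and 96 h (1 lower and 3 higher at an unadjusted p under 0.05). Over the alternatives, this list had 4 to 10 genes called at 48 h and 0 to 4 at 96 h against 0 h, the latter count being lower in 8 of the 11 fits that left out 1 array. Of the 10 adaptors and positive regulators, 3 fell at 48 h: Sos1, a Ras exchange factor, by 1.44 (adjusted p = 0.0113), Sh2b2 by 0.65 (0.0325) and Sh2b1, which binds and stimulates JAK2, by 0.56 (0.0365). None rose there, and 0 were called in the other two comparisons (at an unadjusted p under 0.05, 2 lower at 96 h against 0 h and 2 higher at 96 h against 48 h). The count at 48 h ranged from 1 to 3 over the alternatives.

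Where 8.02% of all features were called lower at 48 h, 3 of 12 further STAT5 target genes fell and 0 rose (the same counts at an unadjusted p under 0.05). They were Myc, a growth regulator (-0.73, adjusted p = 0.0274, with overlapping groups), Id1, an inhibitor of differentiation factors (-0.64, adjusted p = 0.0225), and Bcl2l1, the gene of the survival protein BCL-XL (-0.52, adjusted p = 0.0200). At 96 h Bcl2l1 (-0.66, adjusted p = 0.0212) and Osm, the cytokine oncostatin M (-0.63, adjusted p = 0.0399), were lower than at 0 h and 0 were higher (3 lower and 1 higher at an unadjusted p under 0.05). The share of all features called there was 9.55%, with 3.38% lower and 6.17% higher. Cdkn1a, the cell-cycle inhibitor p21, was lower at 96 h than at 48 h (-0.69, adjusted p = 0.0449), and 0 were higher (3 at an unadjusted p under 0.05). That 1 call of 12 is near the 11.1% of all features. The widest difference of the list, that of Bcl6, a repressor named here after its values were seen, was 2.30 at 96 h against 0 h and did not pass (95% interval 0.69 to 3.90; adjusted p = 0.0699). Over the alternatives, between 0 and 3 genes of this list were called in each comparison; leaving out 1 array lowered the 48 h count in 5 of 11 fits and the 96 h count against 0 h in 7 of 11. Of 8 genes for Pim substrates, Eif4ebp1, a repressor of cap-dependent translation, fell by 0.45 at 48 h and by 0.46 at 96 h (adjusted p = 0.0142 and 0.0289), and the other seven were not called in any comparison with limma. That 1 call of 8 is near the share of all features called, which was 18.6% at 48 h and 9.55% at 96 h against 0 h. At an unadjusted p under 0.05, 2 of the 8 were lower and 0 higher at 48 h, and 2 lower and 1 higher at 96 h against 0 h. The list's count ranged over the alternatives from 1 to 3 at 48 h and from 0 to 3 at 96 h.

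**Figure D4:**
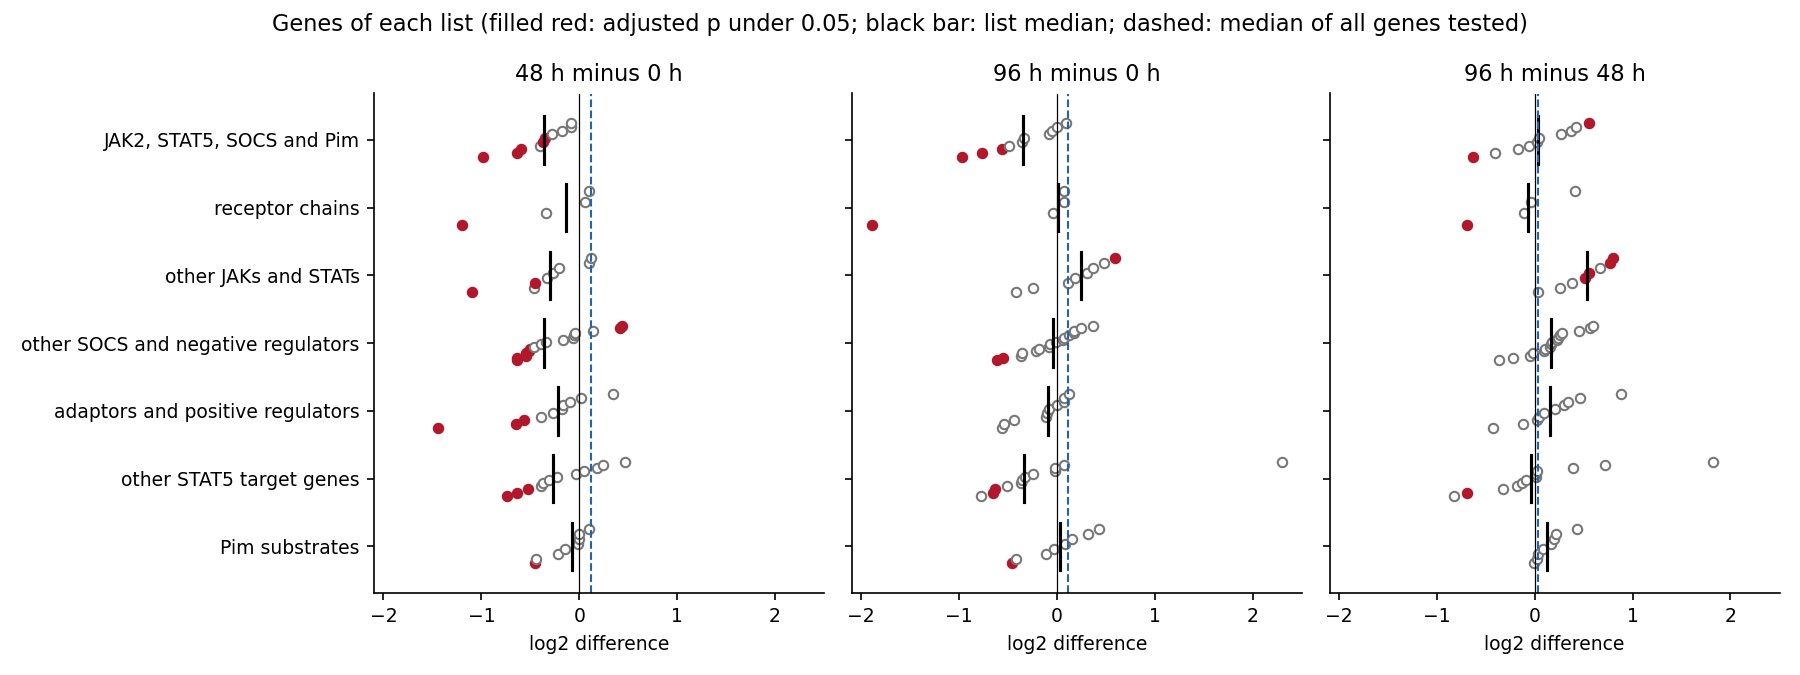
Log2 difference (x axis) of every tested gene of the 6 pathway lists and of the 10 genes themselves (rows), in the 3 comparisons; each point is a gene, filled red where the adjusted p is under 0.05, the black bar is the list's median, and the dashed line is the median of all features tested. The lowest filled point among the receptor chains is Il3ra, at -1.20 and -1.89.

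Cish had the largest absolute difference from 0 h at 96 h among the 10 genes, and the 5 genes whose signals followed it most closely over the 11 arrays, among 14998 other named genes, were Dcun1d2 (Pearson r = 0.963), Alkbh5 (0.962), Eif6 (0.962), Btg3 (0.958) and Magohb (0.955). These r values are a description over arrays that share time points and slides. Magohb, an exon junction complex gene, differed from 0 h by -0.95 and -1.79 at 48 h and 96 h, and Btg3, an antiproliferative gene, by -0.49 and -1.35. The other three moved less, with 96 h differences of -0.52 for Eif6, -0.42 for Alkbh5 and -0.30 for Dcun1d2.

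Markers of the labelled cell type and of others the cultures could hold moved with time. All 8 progenitor markers were well above background on every array, and their signals, each as a multiple of the array's 75th percentile, summed to between 863 and 1128 at 0 h, 1298 and 1395 at 48 h, and 1220 and 1282 at 96 h. Most of this sum is Ctsg (mean scaled log2 signal of 9.62, 9.84 and 9.58 at 0 h, 48 h and 96 h). The other sums too are led by their brightest markers. Of the 8, Mpo and Ms4a3 rose at both times, Mpo by 4.33 and 5.18 on the log2 scale, and none was called lower. Among all features, 10.5% were called higher at 48 h and 6.17% at 96 h against 0 h. At an unadjusted p under 0.05, 4 of the 8 were higher and 2 lower at 48 h, and 4 higher and 1 lower at 96 h against 0 h. Kit, the stem cell factor receptor, differed by -0.49 at 48 h (adjusted p = 0.109). All 10 mature neutrophil markers were well above background on every array, summing to between 79.6 and 639 at 0 h, 172 and 613 at 48 h, and 795 and 1503 at 96 h. Of these 1 rose at 48 h (Camp, by 2.50) and 3 at 96 h against 0 h (Ltf by 6.82, Camp by 5.70 and S100a8 by 3.11). The 1 call of 10 at 48 h is near the 10.5% of all features called higher there, and the share at 96 h was 6.17%. Monocyte marker sums ran from 27.8 to 50.3 over the groups, with 9 of 10 markers on the array. Fcgr1 fell by 3.71 at 48 h (adjusted p = 0.00738). It was the 1 marker called of 8 tested there, where 18.6% of all features were called. The median difference of the 8 at 48 h was 0.26, and at an unadjusted p under 0.05 the counts were 1 higher and 1 lower. Erythroid sums were 36.7 to 48.6 at 0 h and at most 33.8 in treated cells. They are almost wholly Hemgn, with a mean of 5.40 at 0 h, where the other tested erythroid markers had means of -2.09 or lower. Hemgn fell by 0.42 and 0.48 at 48 h and 96 h, while Epor rose by 0.66 and 0.87. The defining Hbb-b1 was dim throughout (well above background on 0 of 11 arrays). Mast cell sums lay between 3.64 and 10.2. Of the 4 tested markers, Mcpt8 and Tpsb2 rose by 1.02 and 0.52 at 48 h, and 1 was lower there at an unadjusted p under 0.05. Gata2 had means of 1.72, 1.19 and 0.92 at 0 h, 48 h and 96 h and was called lower at 96 h against 0 h (-0.80). Cpa3 had means of 0.90 at 0 h and 0.83 at 48 h. Tpsb2 was lower at 96 h than at 48 h (-0.42). Cd3e, a T cell marker, was lower at 96 h than at 0 h (-0.53) and 48 h (-0.90). Lymphoid sums, mostly of Cd4 and Cd3e, lay between 9.41 and 16.1 with Ebf1 dim in the same sense, and stromal sums between 0.917 and 2.10 with Lum and Pdgfra likewise. The part of these marker changes in the values of the 10 genes was not tested. The arrays measured whole cultures, so fewer cells of a type and less RNA per cell cannot be told apart.

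**Figure D5:**
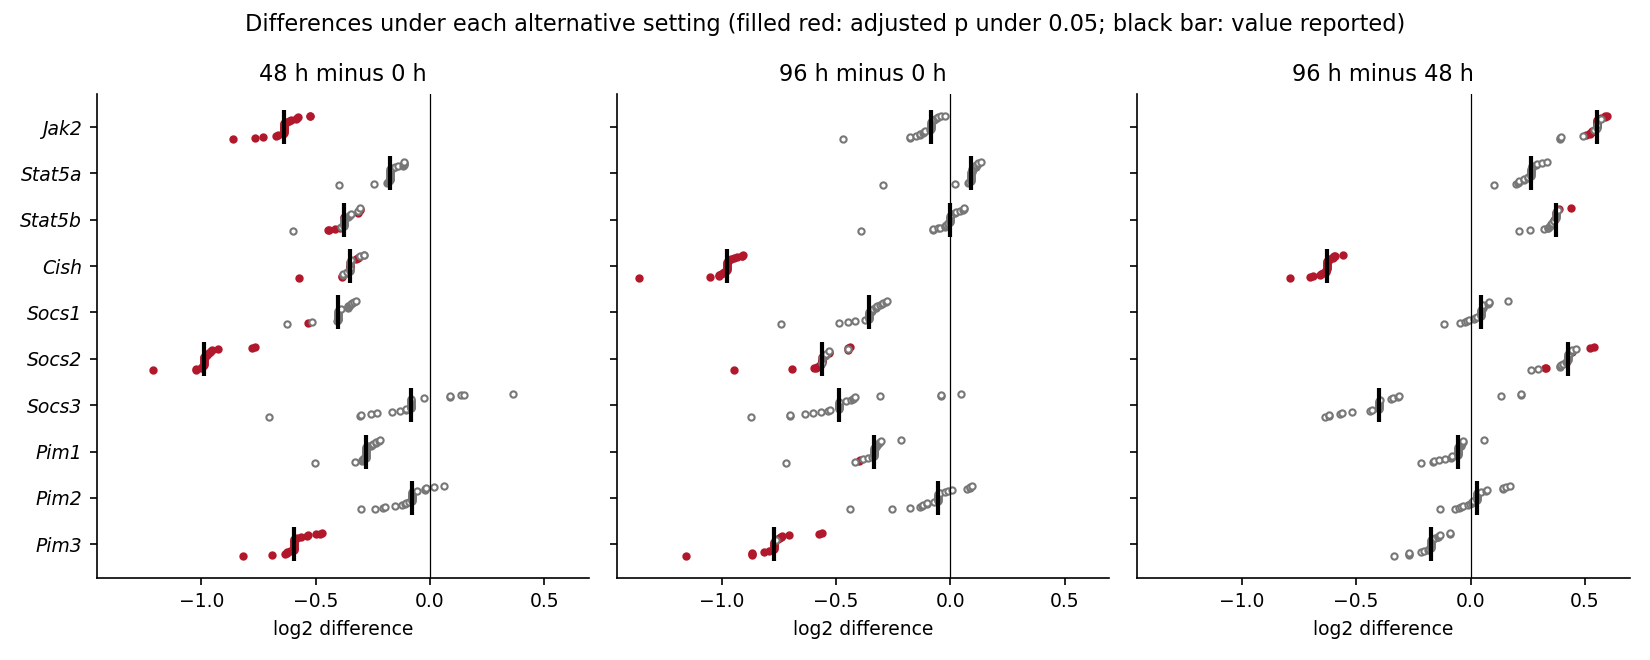
Log2 difference (x axis) of each of the 10 genes (y axis) under every alternative (points) and as reported (black bar), in the 3 comparisons; filled red points have an adjusted p under 0.05. Jak2, Socs2 and Pim3 at 48 h and Cish at 96 h are filled under all of them, while Stat5b and Cish at 48 h are filled under some.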

How the data were processed

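Total RNA of 11 cultures (4 at 0 h, 4 at 48 h, 3 at 96 h) was labelled with Cy3, 1 array each. Per the file headers, Agilent Feature Extraction 11.0.1.1 gave the deposited intensity values, with the background already subtracted. The authors' deposited log2 values were not used for the main values; judged by those values (r of at least 0.99998 with normexp and quantile normalization; column medians 6.17 to 6.19) they are on a log2 scale and not centred. Per the submitters' processing notes, limma was used, with no version given. Flags deposited for each spot marked signals well above background (an on or off value) and outliers; outlier spots (125 to 194 per array) were left out.

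Here, log2 processed signals minus the array's 75th percentile were averaged per probe (55681 probes, 27656 with a symbol). Probes well above background on at least 3 arrays were kept (34273), and the brightest probe of each gene was used. limma 3.58.1 in R 4.3.3 was fitted to all 3 groups with 8 residual degrees of freedom, with Benjamini-Hochberg adjustment and a threshold of 0.05. The steps were tested on simulated data. Promoters were searched with Python 3.11.15 and figures drawn with matplotlib 3.10.9.

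Array correlations within a group were 0.983 to 0.990. Deviations of same-numbered arrays from their group means correlated at 0.14 to 0.28 in all 4 pairs of 0 h and 48 h. These numbers were tried as a replicate block among the alternatives. The main fit and the permutation tests did not use them, so their p-values ignore any pairing of the arrays. Each of these numbers is also the array's column on the slide, as is the array-name number at 96 h. A shared source of cells and a shared column therefore cannot be told apart. Correlations of unlike-numbered arrays were not examined. At 96 h, title numbers gave -0.04 to 0.36 against 0 h and the numbers in the submitters' array names, which differ from the titles there, 0.12 to 0.36. Any pairing is thus read from the data, not from the labels.

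All 10 genes are named. Of the pathway lists, receptor chains, JAKs and STATs are named, and of each other list the genes with the 3 largest differences past the threshold in a comparison; some list genes are not reported here. Likeness was measured for the gene with the largest difference at 96 h. The genes and lists were chosen with earlier results of these data known. Alternatives were the scaling, normalization, background, filter, probe rule, groups fitted, array weights, replicate block, slide row, and leaving out each array.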

Additional observations from a re-analysis of the deposited data

Results flagged for a closer look

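Among the 4-array groups of the 10 genes (20 groups checked by Dixon's 95% limit; chance alone gives about 1 group in 20), 3 held an array far from the others. Replicate 3 of 48 h stood high for Stat5b at 2.69, with a gap of 0.842 of the group's range. Replicate 2 of 48 h stood high for Socs3 at 1.46 (0.924) and low for Pim3 at -0.052 (0.928). Of 12 groups of within-array differences, replicate 1 of 0 h stood high for Cish minus Socs2 at 3.23 (0.960).

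The differences from 0 h at 96 h and at 48 h themselves differed for Jak2, by 0.55 (adjusted p = 0.0203), and for Cish, by -0.63 (adjusted p = 0.0100). This is the 96 h against 48 h comparison in limma, since both differences share the 0 h arrays. Every 96 h array of Jak2 lay above every 48 h array, and every 96 h array of Cish lay below. Both genes were flagged for being called, so this adds no support to the calls.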

How the results depend on the processing

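Jak2, Socs2 and Pim3 at 48 h, and Cish at 96 h against both other groups, were called under every alternative run. At 48 h against 0 h, 5 members were called, and 3 when dim probes were kept, when the 96 h arrays were left out of the fit, with the slide row as a term, with the replicate block by title number, and with that replicate block on the 0 h and 48 h arrays alone (chosen after seeing the data, as were the fits over array-name numbers 1, 3 and 4); leaving out 1 array gave 3 to 5. At 96 h against 0 h, 3 were called, 2 with the title block, with dim probes kept or with the 48 h arrays left out (Socs2 lost), 4 with normexp or the deposited table (Pim1 gained), and 1 to 3 without 1 array, the 1 being without replicate 2 of 96 h. At 96 h against 48 h, 2 were called, 1 with median scaling, no filter or the replicate block by title number, and 4 with quantile normalization, a filter of all 11 arrays, or array weights; leaving out 1 array gave 1 to 3. The block by array-name number left the 3 counts at 5, 3 and 2. No other member's call changed with the title block than Stat5b and Cish at 48 h, Socs2 at 96 h and Jak2 between 48 h and 96 h.

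Reversals fell on differences that were not called. At 48 h against 0 h these were Socs3 with array weights (0.088) and Pim1 minus Pim2 with quantile normalization (0.020). For 96 h against 0 h they were Stat5a with median scaling (-0.29), Stat5b with the percentile over all-array probes (0.026), quantile (0.042), normexp (0.060) and the deposited table (0.060), Socs3 with the array-name block (0.049), and Pim2 with that block (0.075) and over array-name numbers 1, 3 and 4 (0.087). For 96 h against 48 h they were Socs1 with median scaling (-0.11) and the title block (-0.045), Pim2 with median scaling (-0.13), the percentile over all-array probes (-0.0030) and quantile (-0.011), Socs3 with the array-name block (0.13) and over numbers 1, 3 and 4 (0.22), and Pim1 minus Pim3 with normexp (-0.071) and the deposited table (-0.071). The cause was not tested. Leaving out 1 array gave, at 48 h, Socs3 -0.70 to 0.36, Pim2 -0.20 to 0.060 and Socs1 minus Socs3 -0.75 to 0.30. For 96 h against 0 h it gave Stat5b -0.076 to 0.057, Pim2 -0.18 to 0.093 and Socs1 minus Socs3 -0.31 to 0.36. For 96 h against 48 h it gave Socs1 -0.022 to 0.16, Socs3 -0.64 to 0.22, Pim1 -0.14 to 0.061, Pim2 -0.068 to 0.17, Pim1 minus Pim3 -0.00086 to 0.28 and Socs1 minus Socs3 -0.17 to 0.80.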
